A study of Mus musculus with 230 samples.

Results

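The genes described here are 10 members of the tubulin family, 4 alpha-tubulin genes (Tuba1a, Tuba1b, Tuba1c and Tuba4a) and 6 beta-tubulin genes (Tubb2a, Tubb2b, Tubb3, Tubb4a, Tubb4b and Tubb5), taken by name from the 53278 genes of the count table. Sensory neurons were picked by hand from dissociated L4 and L5 dorsal root ganglia of crosses between C57BL/6 and CAST/Ei mice, either intact or after injury of the sciatic nerve. The 18 low-input RNA libraries formed 6 groups of 3: injured and intact neurons at 1, 8 and 12 months of age. In addition 69 single neurons were sequenced, 21 injured and 18 intact at 1 month and 22 injured and 8 intact at 1 year, 1 of the injured 1-year cells holding no count. Neither the sex of the mice, the time after injury nor the number of neurons in a low-input library was given in the sources used here. The labels do not say that libraries came from separate animals, so p-values measure the spread between these libraries, which may be technical.

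Alpha- and beta-tubulin join as a dimer, and dimers stack into the microtubules that carry axonal transport and hold the shape of the axon. The isotypes differ mainly in their C-terminal tails, the part that enzymes modify and that motors and associated proteins touch. Tubb3 is the beta isotype typical of neurons and is widely used as a neuronal marker. Tuba1a and Tubb2b are known for high levels in developing neurons and for brain malformations when mutated. Regrowth of a cut axon needs new microtubules, and tubulin messages have long been studied in injured sensory neurons. In bulk libraries such as these, fewer cells of a type and less RNA per cell cannot be told apart.

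The upstream sequences of 3 genes that were higher after injury (Tuba1c, Tubb2a and Tubb3) and of 1 gene that did not pass the test (Tubb4b) are shown, since these genes are compared below. They are RefSeq sequences on GRCm38.p6, read 5′ to 3′ on the gene's strand and ending before the first annotated base of the gene. The table held 9 of the 10 genes, and Tubb2b was not among them. Tuba1c lies at chr15:99029641-99029890 on the plus strand, Tubb2a at chr13:34078009-34078258 on the minus strand, Tubb3 at chr8:123411303-123411423 on the plus strand and Tubb4b at chr2:25224703-25224952 on the minus strand. Capitals mark matches to any of 6 motifs on either strand: AP-1 (TGANTCA), the cyclic AMP response element (TGACGTCA), the E-box (CACGTG), the CCAAT box (CCAAT), the GC box (GGGCGG) and the TATA box (TATAAA).
Tuba1c: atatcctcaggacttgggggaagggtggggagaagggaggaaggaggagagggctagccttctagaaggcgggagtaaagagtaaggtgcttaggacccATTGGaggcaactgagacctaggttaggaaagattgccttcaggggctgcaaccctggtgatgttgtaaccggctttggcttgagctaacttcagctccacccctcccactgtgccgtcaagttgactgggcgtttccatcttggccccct
Tubb2a: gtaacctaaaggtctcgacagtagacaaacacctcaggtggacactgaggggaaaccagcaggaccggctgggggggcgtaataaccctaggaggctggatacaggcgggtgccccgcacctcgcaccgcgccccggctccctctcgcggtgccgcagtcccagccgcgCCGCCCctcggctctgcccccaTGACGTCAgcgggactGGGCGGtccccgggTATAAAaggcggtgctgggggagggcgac
Tubb3: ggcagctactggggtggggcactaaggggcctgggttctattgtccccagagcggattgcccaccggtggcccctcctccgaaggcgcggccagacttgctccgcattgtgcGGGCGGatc
Tubb4b: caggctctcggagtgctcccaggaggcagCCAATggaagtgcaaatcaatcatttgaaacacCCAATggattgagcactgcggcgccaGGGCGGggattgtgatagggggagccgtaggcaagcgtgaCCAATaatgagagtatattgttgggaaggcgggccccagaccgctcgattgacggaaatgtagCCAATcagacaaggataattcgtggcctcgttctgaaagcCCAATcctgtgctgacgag

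Letters were counted over the 250 bases before the RefSeq start, which for 6 of the 9 members run into the gene as the count table's annotation has it. Of the window 129 bases lie inside the annotated gene for Tubb3, and all of it for Tuba4a, and these bases are not shown. Tubb2a was the member that held the letters of the cyclic AMP response element, which 1.55% of 32851 windows of the same length held. Tubb2a also held the TATA box letters (12.4% of windows). The CCAAT box letters were in the windows of 5 of 9 members (33.8% of windows), in 4 of them before the first annotated base, the match of Tubb3 lying after it. They occurred at 5 places before Tubb4b. GC box letters were in 6 of 9 members (32.7% of windows), in 5 before the first annotated base. No member held the AP-1 letters in this window (6.75% of windows did), and Tubb5 held the E-box (6.02%). A match is a description of letters and not of binding.

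Depth set the precision of what follows. The low-input libraries held 7531967 to 19443627 counts in genes, of which 29.4 to 59.7% in injured and 40.4 to 93.8% in intact libraries fell in a single feature, CT010467.1. At each age this share was higher in every intact library than in every injured library. Counts outside it ranged from 770328 to 11587094, and the lowest total belonged to intact 12-month replicate 2, where 40.5% of these counts were mitochondrial. That library stood apart for the tubulins too, and values without it are given beside each tubulin call that it changed. General neuron markers were present in all libraries, with a summed level, in CPM (counts scaled to a common library total) outside the dominant feature, of 13090 to 22430 in injured and 15950 to 24090 in intact libraries. As a check of the labels, Sprr1a, a small proline-rich protein induced in injured sensory neurons, stood at 60.5 to 1080 CPM in injured libraries and at 0 to 0.652 CPM in intact libraries. CPM of the 18 libraries are TMM-scaled, with library totals rescaled by edgeR, except where they are said to be taken outside the dominant feature, which uses the plain total of those counts.

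Injured neurons held more message of 4 of the 10 tubulins when the 3 ages were averaged, and none was called lower. Tubb3, Tubb2a, Tubb2b and Tuba1c rose, by 0.83 to 1.31 on the log2 scale. Among the 14212 genes tested 5.11% were called higher and 1.07% lower (edgeR quasi-likelihood test, Benjamini-Hochberg adjusted p under 0.05). With the replicate number as a block none of the 4 passed (2.17% of genes were called higher), and whether equal numbers pair libraries is unsettled. The median log2 change of the 10 tubulins was 0.68, against 0.03 over all genes tested.

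Tubb3, the neuronal beta isotype (chromosome 8, 123411424 to 123422015, plus strand), stood at 3859, 3539 and 3455 CPM in injured libraries at 1 month and at 2979, 2306 and 1679 CPM in intact ones. At 8 months it was at 2333, 4830 and 4226 CPM after injury against 2683, 1554 and 1064 CPM. At 12 months the values were 3270, 4566 and 3544 CPM against 2113, 681 and 2065 CPM. Injured and intact libraries did not overlap at 1 and 12 months, and at 8 months injured replicate 1 fell below intact replicate 1. Its averaged log2 change was 0.99 ± 0.25 (SE), with an edgeR adjusted p of 0.0236. With the replicate block it was 1.07 ± 0.31 (adjusted p 0.115).

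**Figure D1:**
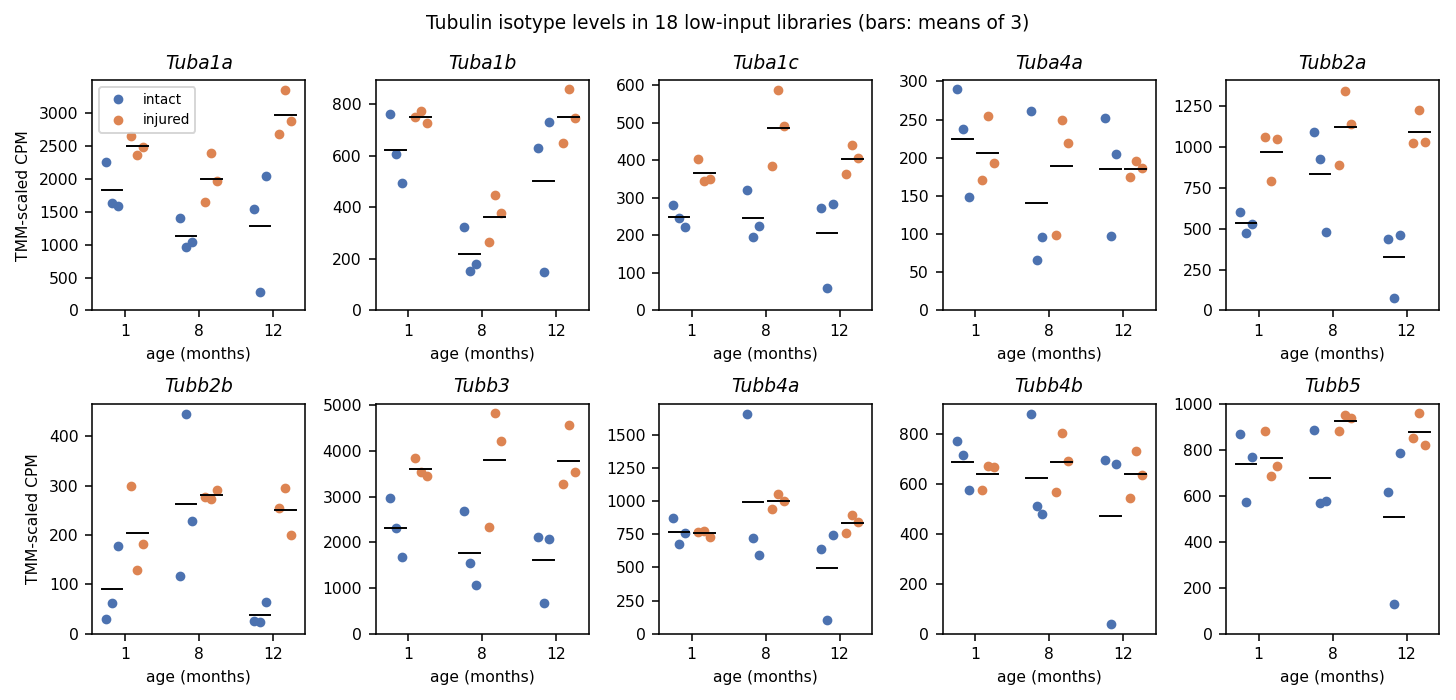
TMM-scaled CPM (linear y axes starting at 0) of the 10 tubulin genes in each low-input library against age in months, blue for intact and orange for injured, with bars at the means of 3 libraries. Tuba1c is higher in each injured library than in each intact one, and intact 12-month replicate 2 is the lowest point of most panels.

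Tubb2a, a beta isotype abundant in nervous tissue (chromosome 13, 34074274 to 34078007, minus strand), was at 1062, 796 and 1049 CPM in injured 1-month libraries and at 600, 477 and 529 CPM in intact ones. At 8 months the injured values were 890, 1347 and 1140 CPM and the intact values 1095, 929 and 483 CPM, so that the groups overlapped. At 12 months they were 1024, 1226 and 1035 CPM against 436, 77.7 and 462 CPM. Groups were again apart at 1 and 12 months. The averaged log2 change was 1.01 ± 0.26 (edgeR adjusted p 0.0297), and 1.13 ± 0.31 with the replicate block (adjusted p 0.0945).

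Tubb2b, a closely related gene nearby (chromosome 13, 34126748 to 34130466, minus strand), had the highest averaged log2 change of the 10, 1.31 ± 0.33 (edgeR adjusted p 0.0247), and 1.51 ± 0.37 with the replicate block (adjusted p 0.0617). In injured libraries it was at 300, 129 and 183 CPM at 1 month, 278, 274 and 290 CPM at 8 months and 256, 296 and 199 CPM at 12 months. In intact libraries it was at 30.5, 61.7 and 178 CPM at 1 month, 118, 445 and 228 CPM at 8 months and 26.8, 23.5 and 65.4 CPM at 12 months. Injured libraries thus lay within 129 to 300 CPM at every age, while intact libraries spread from 23.5 to 445 CPM. The groups were apart at 12 months, and at 8 months the highest library of all 18 was an intact one.

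Tuba1c, an alpha isotype (chromosome 15, 99029891 to 99038105, plus strand), had 404, 343 and 349 CPM in the injured libraries of 1 month, whereas the intact ones had 279, 245 and 221 CPM. At 8 months it was at 384, 586 and 490 CPM against 319, 196 and 224 CPM. The 12-month values were 362, 439 and 406 CPM against 272, 59.6 and 284 CPM. Every injured library lay above every intact library whatever the age, as held for 0.943% of genes tested. The averaged log2 change was 0.83 ± 0.23 (edgeR adjusted p 0.0395), and 0.92 ± 0.27 with the replicate block (adjusted p 0.120).

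Tuba1a, the most abundant alpha isotype (chromosome 15, 98949841 to 98953551, minus strand), had the same averaged log2 change, 0.83 ± 0.27, but did not pass the test (edgeR adjusted p 0.0781). Its injured values were 2647, 2364 and 2488 CPM at 1 month, 1642, 2393 and 1968 CPM at 8 months and 2682, 3343 and 2883 CPM at 12 months. Its intact values were 2251, 1636 and 1585 CPM, then 1400, 966 and 1033 CPM, then 1539, 273 and 2047 CPM. Within each age the injured libraries lay above the intact ones.

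The other 5 genes did not pass either. Tuba1b, a nearby alpha gene (chromosome 15, 98931425 to 98934565, minus strand), had a log2 change of 0.52 ± 0.25 (edgeR adjusted p 0.251). Tubb5, a broadly expressed beta isotype (chromosome 17, 35833921 to 35838306, minus strand), had 0.43 ± 0.25 (edgeR adjusted p 0.357). Tubb4a, a beta isotype of neurons and oligodendrocytes (chromosome 17, 57080066 to 57087782, minus strand), Tubb4b, a broadly expressed one (chromosome 2, 25222160 to 25224702, minus strand), and Tuba4a (chromosome 1, 75214228 to 75219865, minus strand) had 0.25 ± 0.28, 0.15 ± 0.34 and 0.10 ± 0.27. Tuba4a shares exon sequence with Stk16 on the opposite strand and Tubb4b with Fam166a. Counting ignored strand, so reads that lie within the shared stretches cannot be told apart. Reads of Tubb4b and Tubb2a can also be split with their annotated pseudogenes, which held 44 to 804 counts over the 18 libraries, and all 10 genes resemble each other in coding sequence.

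Read age by age, 4 of the 10 tubulins (Tuba1a, Tuba1c, Tubb2a and Tubb3) were higher in all injured than in all intact libraries at 1 month, where 10.5% of genes tested were. At 8 months these were Tuba1a and Tuba1c (9.39% of genes). At 12 months there were 7 of 10, all but Tuba1b, Tuba4a and Tubb4b (19.2% of genes). By edgeR, Tubb2b was called higher at 12 months (log2 change 2.66 ± 0.61, adjusted p 0.0279), where 2.19% of genes were called higher. Tubb2a just missed there (1.74 ± 0.47, edgeR adjusted p 0.0526). Without intact 12-month replicate 2 the pair changed places, with Tubb2b not called (2.45 ± 0.71, adjusted p 0.0533) and Tubb2a called (1.29 ± 0.29, adjusted p 0.0179). In that fit 4.03% of genes were called higher. With the replicate block neither was called, Tubb2b having 2.81 ± 0.66 (adjusted p 0.114) and Tubb2a 2.04 ± 0.57 (adjusted p 0.163).

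None of the 10 was called for injury at 1 month (0.232% of genes were) or at 8 months (0.957%). Unadjusted p (edgeR) was under 0.05 for 0 members at 1 month and for 2 at 8 months, Tubb3 (1.10 ± 0.43) and Tuba1c (0.98 ± 0.40). The share of all genes under that unadjusted threshold is not given here, so these counts have no background. DESeq2 and limma-voom called none at either age. Without intact 12-month replicate 2, a library outside the contrast that enters the shared estimate of spread, edgeR called Tuba1c at 8 months (0.99 ± 0.21, adjusted p 0.0314; 1.19% of genes were called higher). The injury effect of Tubb2b was 1.18 ± 0.57, 0.09 ± 0.56 and 2.66 ± 0.61 on the log2 scale at 1, 8 and 12 months. The joint test of whether the injury effect differed between ages called no gene at all (0%), with an unadjusted p of 0.0193 and an edgeR adjusted p of 0.504 for Tubb2b.

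**Figure D2:**
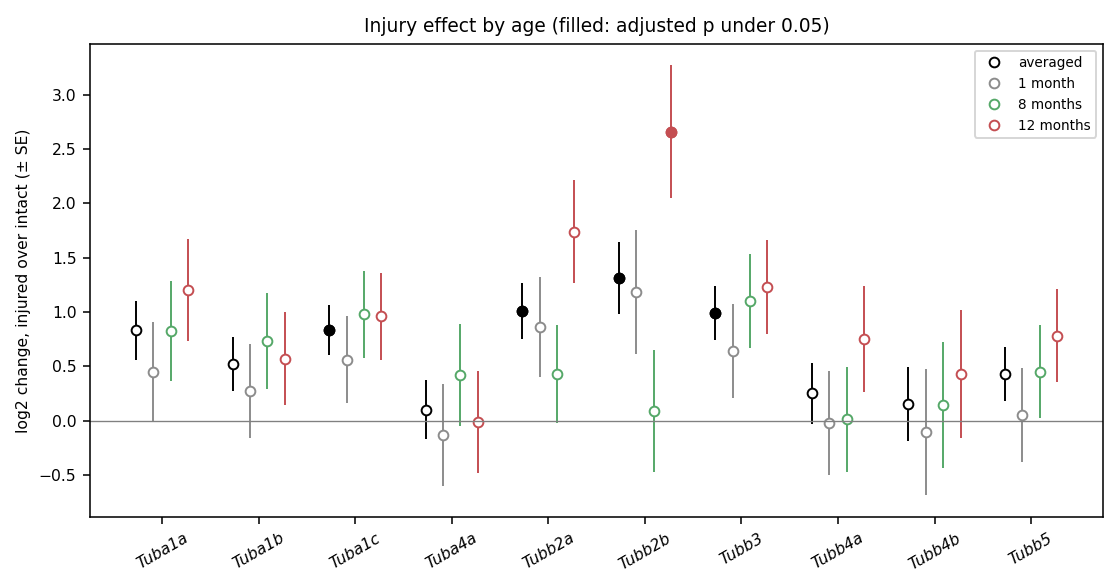
Fitted log2 change of injured over intact (y axis, bars are SE) for each tubulin gene, averaged over ages in black and at 1, 8 and 12 months in grey, green and red, filled where the adjusted p was under 0.05. Filled points are Tuba1c, Tubb2a, Tubb2b and Tubb3 in the average and Tubb2b at 12 months.

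Which libraries and terms entered the fit decided the calls. Without intact 12-month replicate 2, 5 of the 10 were called higher (7.07% of genes were), Tuba1a among them (0.67 ± 0.12, edgeR adjusted p 0.00369), and the log2 changes of Tubb3 and Tubb2b were 0.87 ± 0.19 and 1.24 ± 0.36. With the replicate block 0 members were called. Leaving out injured 1-month replicate 1 or injured 12-month replicate 2 also left 0 members called. When the fit held the dominant feature's share as a covariate, the log2 change was -0.03 ± 0.47 for Tubb3 and 1.66 ± 0.80 for Tubb2b, 0 members and 0.0774% of all genes were called higher, and the log2 change was below 0 for 8 of the 10 genes. With the log-odds of that share as the covariate, 0 members and 0.837% of genes were called higher, and the log2 change was 0.15 ± 0.35 for Tubb3, -0.01 ± 0.37 for Tubb2a and 1.36 ± 0.67 for Tubb2b. With that feature removed before the fit the same 4 members were called.

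Lists of cell type markers were read beside these values. Of 10 general neuron markers 1 was called, Rbfox3, which was lower after injury (-1.16 ± 0.33, edgeR adjusted p 0.042), where 1.07% of genes were. It was called in 11 of 27 alternatives (adjusted p up to 0.864) and was higher after injury in 3 of them, spike-in scaling among these (2.02). No marker of the other cell types was called, of 7 satellite glia, 7 Schwann cell, 3 immune and 2 vessel and fibroblast genes tested. The fitted log2 change was below 0 for all 10 general neuron markers (median -0.19) and above 0 for all 7 satellite glia markers (median 1.39). Medians of the Schwann cell, immune, and vessel and fibroblast markers were -1.38, 1.14 and 0.89. The summed level of 7 satellite glia markers in CPM outside the dominant feature was 518 to 5534 (median 1924) in injured and 270 to 1713 (median 565) in intact libraries. For 5 vessel and fibroblast markers it was 65.3 to 154 (median 112) against 1.12 to 88.97 (median 28.1), for 8 Schwann cell markers 1104 to 1696 against 326 to 2457, and for 8 immune markers 4.93 to 29.6 against 0 to 23.4. The ranges of the 2 conditions overlapped for each list. Their part in the tubulin differences was not tested.

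Compared per kilobase of exon, Tubb3 and Tuba1a were the leading isotypes in both conditions. Over the 9 injured libraries the mean levels were 2000 ± 401 (SD) CPM per kb for Tubb3, 1512 ± 301 for Tuba1a and 660 ± 102 for Tubb2a, and these 3 stood in that order in all 9 libraries. They were followed by Tubb4a (388 ± 52.4), Tuba1b (331 ± 110), Tubb4b (314 ± 40.3), Tubb5 (258 ± 29.1), Tuba1c (211 ± 39.5), Tubb2b (107 ± 26.3) and Tuba4a (52.4 ± 12.6). Tubb4a exceeded Tuba1b in 3 of the 9, which were the libraries of 8 months. In all injured libraries of 1 and 12 months Tuba1b exceeded Tubb4a. In intact libraries Tubb3 (1019 ± 396 CPM per kb, n = 9) exceeded Tuba1a (859 ± 362) in 6 of 9. Tubb2a (351 ± 183) exceeded Tubb4a (337 ± 181) in 3 of 9, Tubb4b (285 ± 117) exceeded Tuba1b (239 ± 134) in 5 of 9, and Tubb2b (57.0 ± 60.1) exceeded Tuba4a (49.7 ± 22.6) in 3 of 9.

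Summed over the 10 genes, the family took 2.79 ± 0.37% (SD, n = 9) of the counts outside the dominant feature in injured libraries and 1.66 ± 0.67% in intact ones. The lowest intact value, 0.118%, was that of 12-month replicate 2, and without it the intact mean was 1.86 ± 0.36% (n = 8). The summed level of the 10 genes ran from 8282 to 13510 CPM after injury and from 1635 to 9709 CPM in intact libraries, so the conditions overlapped over all ages.

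Shares within a subfamily do not depend on the scaling of libraries, only on the counts and lengths of the genes in it. Tubb3 made up 53.4 ± 4.02% of beta-tubulin message per kb in injured libraries (n = 9) and 47.2 ± 10.8% in intact ones. At 1 month the injured shares were 55.2, 57.1 and 53.6% and the intact shares 53.1, 51.9 and 41.8%. At 8 months they were 43.3, 55.2 and 54.4% against 39.9, 35.5 and 34.7%, so the groups were apart at both ages. At 12 months they were 52.1, 55.8 and 53.4% against 51.0, 69.0 and 47.7%, the intact 69.0% being that of replicate 2.

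Tubb4b took a smaller share after injury, although its level had not passed the test. Its share of beta-tubulin was 7.36 to 9.71% in the 9 injured libraries (mean 8.48 ± 0.82%). In 8 of the 9 intact libraries it was 10.47 to 15.04%, and in 12-month intact replicate 2 it was 3.44%. Without that library the conditions did not overlap. Tubb4a averaged 10.53 ± 1.64% after injury and 14.3 ± 3.16% in intact libraries, with overlap. Tubb2b averaged 2.89 ± 0.74% and 2.74 ± 2.74%, and its intact share ran from 0.443% to 8.27%.

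**Figure D3:**
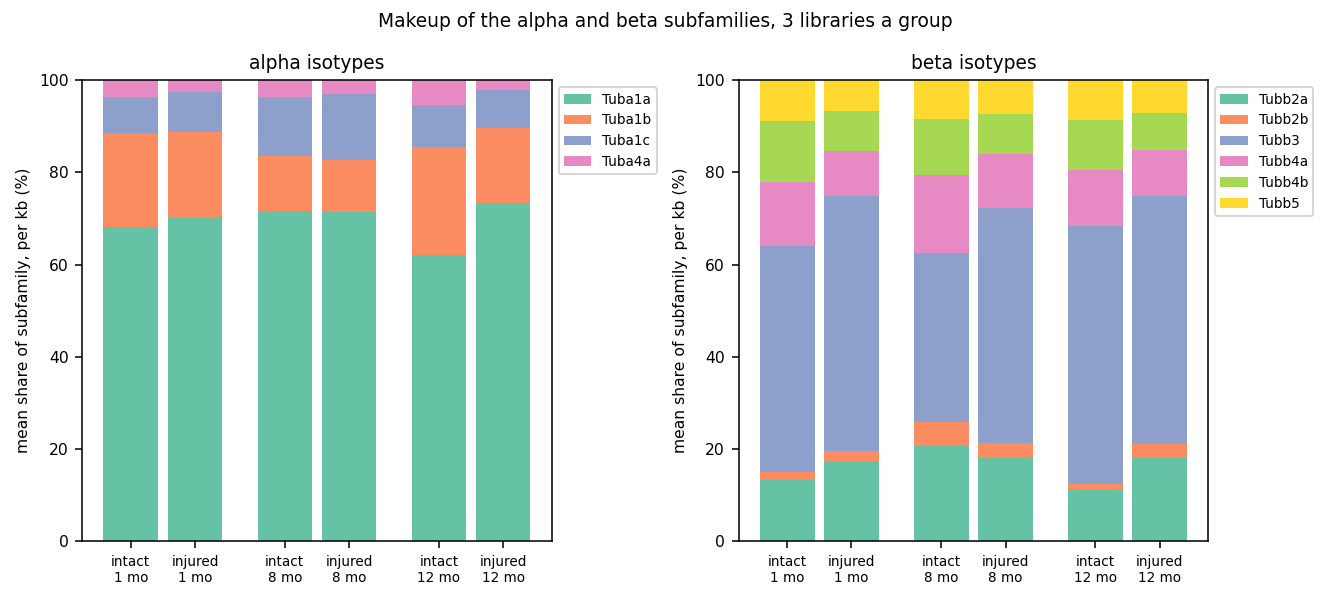
Stacked bars of the mean share (y axis, percent of the subfamily's summed CPM per kb) of each alpha isotype on the left and each beta isotype on the right, in intact and injured groups of 3 libraries at 1, 8 and 12 months. Tuba1a and Tubb3 are the widest segments in every group, and Tuba1c is wider than Tuba1b at 8 months in both conditions.

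The alpha subfamily had another makeup at 8 months in both conditions. Tuba1b made up 18.6 ± 1.04% of alpha-tubulin message per kb in injured and 20.3 ± 1.22% in intact libraries at 1 month. At 8 months it made up 11.3 ± 0.76% and 11.8 ± 1.81%, while 12-month libraries had 16.2 ± 0.48% and 23.4 ± 2.55% (SD, 3 libraries a group). The 6 libraries of 8 months held 10.3 to 13.8%, below all 12 libraries of the other ages (15.7 to 26.2%). At 12 months the injured libraries (15.7 to 16.5%) were below the intact ones (21.3 to 26.2%). Tuba1c went the other way with age, with 12.6 to 14.5% in the 8-month libraries and 7.09 to 10.01% in the others.

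As a level, Tuba1b had 266, 446 and 379 CPM in the injured libraries of 8 months and 325, 152 and 181 CPM in the intact ones. At 1 month the corresponding values were 750, 773 and 727 CPM and 763, 608 and 493 CPM. The log2 change from 1 to 8 months was -1.50 ± 0.44 in intact neurons (edgeR unadjusted p 0.00335, adjusted p 0.108) and -1.04 ± 0.44 in injured ones (unadjusted p 0.0286, adjusted p 0.888), so neither passed. The intact change was called by edgeR without intact 12-month replicate 2 (-1.51 ± 0.27, adjusted p 0.0112; 1.84% of genes were called lower) and with no filter (-1.53 ± 0.40, adjusted p 0.00866). It was also called by DESeq2 (-1.45 ± 0.43, adjusted p 0.0212) and not by limma-voom. The injured change was called by limma-voom (-0.94 ± 0.22, adjusted p 0.0274) and by no other alternative run. The ratio of summed alpha to summed beta per kb was 0.617 ± 0.013 in injured and 0.646 ± 0.016 in intact libraries at 1 month. At 8 months the ratio was 0.440 ± 0.031 after injury and 0.403 ± 0.107 without it, and at 12 months 0.654 ± 0.023 and 0.675 ± 0.111. Each age is also a set of 3 injured and 3 intact libraries, and age cannot be told apart from anything else those sets share.

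**Figure D4:**
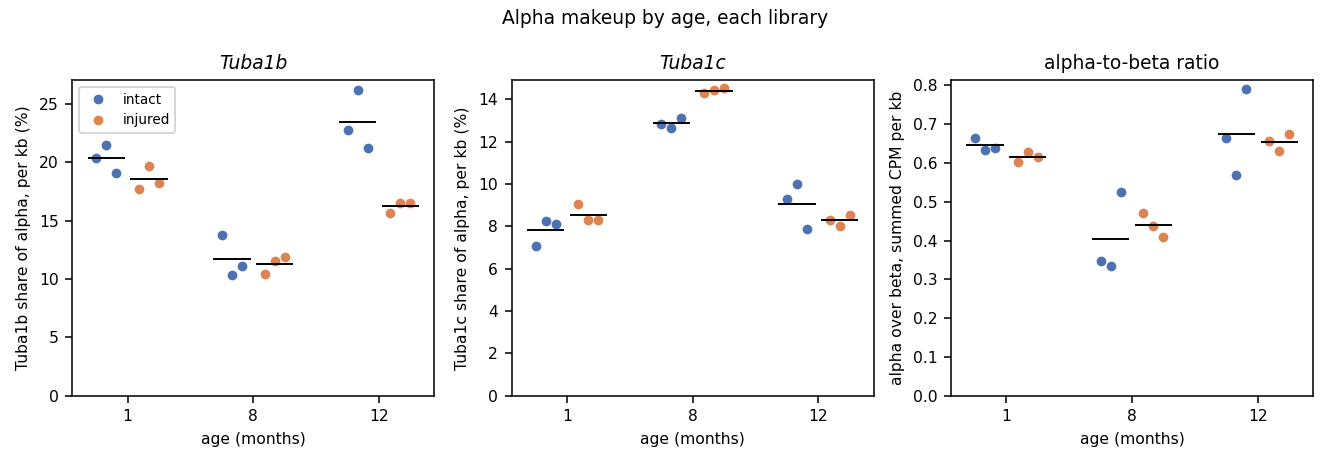
Share of alpha-tubulin message per kb (y axis, percent) taken by Tuba1b and by Tuba1c, and the alpha-to-beta ratio of summed CPM per kb, in each low-input library against age in months, with bars at the means of 3. At 8 months Tuba1b lies at 10.3 to 13.8% and Tuba1c at 12.6 to 14.5% in both conditions.

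Among the age contrasts 1 member was called. Tubb2b fell between 8 and 12 months in intact neurons, by 2.74 ± 0.61 on the log2 scale (edgeR adjusted p 0.0173), where 3.92% of genes were called lower. Its 8-month intact libraries (118 to 445 CPM) and its 12-month ones (23.5 to 65.4 CPM) did not overlap, and without intact 12-month replicate 2 the log2 change was -2.52 ± 0.72 (adjusted p 0.0316). The call did not pass with limma-voom (-2.95 ± 0.79, adjusted p 0.0981) or when the 6 libraries of the contrast were fitted alone (-2.69 ± 0.67, adjusted p 0.455). It was also lost without intact 8-month replicate 2, the library at 445 CPM, and was kept in 24 of 27 alternatives. This contrast shares the intact 12-month libraries with the injury contrast of that age. Tubb2a had -1.35 ± 0.46 (edgeR adjusted p 0.0835) and was called in 3 of 27 alternatives. Tuba1b had 1.21 ± 0.44 (edgeR adjusted p 0.101) and was called in 5 of 27 alternatives. Without intact 12-month replicate 2, Tuba1b was called higher at 12 than at 8 months (1.64 ± 0.29, adjusted p 0.00388). In that fit 6.88% of genes were called higher.

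In the main edgeR fit no tubulin was called for 8 against 1 month in intact neurons (0.922% of genes were) or for 12 against 1 month (0.246%). None was called in injured neurons for 8 against 1 month (0.225%), 12 against 1 month (0.113%) or 12 against 8 months (0.0633%). Members with an unadjusted p under 0.05 numbered 2, 0, 1, 0 and 1 in these 5 contrasts. The share of all genes under that threshold is not given here, so these counts have no background. The exceptions for 8 against 1 month are given above for Tuba1b. Tubb2b was also called for 8 against 1 month in intact neurons, with no expression filter (edgeR adjusted p 0.00924), in 1 of 27 alternatives. By limma-voom Tuba1b was also called for 12 against 8 months in injured neurons. In injured neurons the log2 change of Tubb3 was 0.07 ± 0.43 from 1 to 8 months and also from 1 to 12 months.

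The wider tubulin machinery was read from lists. Counts of its members are to be read against the 5.11% of all genes called higher and 1.07% called lower. Of 10 other tubulin genes 6 were tested and 1 was called, Tubb6, another beta isotype. Injured libraries held 46.8 to 189 CPM of Tubb6 against 1.13 to 20.7 CPM in the intact ones, and its log2 change was 4.08 ± 0.38 (edgeR adjusted p 8.14e-06), above that of any of the 10 members. None of 21 tubulin folding factors was called. The one with the smallest p was Tbcd, a cofactor of dimer assembly, with a log2 change of 0.49 ± 0.16 (edgeR adjusted p 0.0762). Of 17 tested tubulin modifying enzymes 2 were called higher and 0 lower, both at low levels. Agbl5, a deglutamylase, stood at 0.370 to 1.76 CPM (mean 1.09) in injured and at 0 to 1.81 CPM (mean 0.538) in intact libraries, so that the conditions overlapped and the highest library was intact. Its fitted log2 change of 3.21 ± 0.76 (edgeR adjusted p 0.0202) averages the 3 ages, with intact libraries at 0, and is no measure of the fold. Ttll4, a glutamylase, stood at 0.586 to 2.39 CPM against 0 to 1.47 CPM, and its call (2.58 ± 0.74, adjusted p 0.0471) was kept in 10 of 27 alternatives (adjusted p up to 0.815).

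Of 34 microtubule-associated proteins 3 were called higher and 0 lower, beside 5.11% and 1.07% of all genes. Stmn4 and Stmn2, stathmin proteins that bind tubulin dimers, changed by 3.53 ± 0.50 and 0.89 ± 0.22 (edgeR adjusted p 0.00048 and 0.0227). Dpysl5, a collapsin response mediator protein, changed by 0.59 ± 0.14 (adjusted p 0.0177). For Stmn2 the injured libraries averaged 2010 ± 488 CPM and the intact ones 1080 ± 381 CPM (SD, n = 9). None of 6 tested severing and depolymerising enzymes was called, Spast having -0.07 ± 0.23. The median log2 changes were 0.03 for the other tubulins, -0.15 for folding factors, 0.16 for modifying enzymes and 0.05 for associated proteins. They stood beside 0.68 for the 10 isotypes and medians from -1.38 to 1.39 for the cell type marker lists. Of 7 nerve injury genes, which were known from these data, 6 were called higher, with Sprr1a, Gal and Npy changed by 11.39 ± 0.69, 9.87 ± 0.88 and 9.69 ± 0.79.

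Across the 18 libraries the genes whose log2 CPM tracked Tubb3 most closely were Plin2, Ccdc184, R3hcc1, Inpp5f and 3110002H16Rik, with Pearson r of 0.932, 0.931, 0.930, 0.929 and 0.924. For Tubb2b they were Dpysl5, S1pr2, Ppfia2, Lrch3 and Mboat7, with r of 0.913, 0.912, 0.905, 0.900 and 0.897. No gene was on both lists. These are descriptions over libraries that share age, condition and depth.

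In single neurons the tubulins were counted together. All 10 were counted in 17 of 21 injured and 13 of 18 intact cells at 1 month, and in 19 of 21 injured and all 8 intact cells at 1 year. The highest isotype per kb was Tubb3 in 15 injured and 10 intact cells at 1 month and in 10 and 5 at 1 year. It was Tuba1a in 5, 8, 8 and 3 cells of the same groups, and Tubb2a in 1 injured cell at 1 month and 3 at 1 year. No cell was led by another isotype. Cells differed widely in depth, with median counts outside the dominant feature of 1033580 and 291824 in injured and intact cells at 1 month and 3571619 and 7145018 at 1 year. In 9 of the 39 cells of 1 month over 90% of the reads were spike-ins (93.05 to 99.92%), with 109 to 7446 genes detected in them. Without these 5 injured and 4 intact cells, all 10 tubulins were counted in 16 of 16 injured and 12 of 14 intact cells at 1 month. The 1-month cell led by Tubb2a was among those left out. Other values without them are given below for Tubb3, Tubb2a, Tubb2b and the Tubb4b share only. No animal was named for the cells, so the 4 groups were described and not tested.

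Pooled over cells and given as CPM outside the dominant feature, Tubb3 was at 10050 in injured and 5242 in intact cells at 1 month, a ratio of 1.92 (95% counting interval 1.91 to 1.93). At 1 year it was at 4164 and 4148, a ratio of 1.00 (0.999 to 1.01). These intervals cover counting error only and say nothing of the spread between cells or mice. By cell, Tubb3 ran from 239 to 20480 (median 7715) in injured and from 0 to 9780 (median 4494) in intact 1-month cells. At 1 year it ran from 125 to 10680 (median 3816) and from 78.8 to 6094 (median 3986). The injured 1-year cell at 10680 held 281 counts outside the dominant feature, and the next highest was at 7912. Without the spike-in dominated cells it ran from 2702 to 20480 in 16 injured and from 2082 to 9780 in 14 intact 1-month cells, with a pooled ratio of 1.90. Cells of both conditions overlapped at both ages.

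Tubb2b was at 658 and 248 at 1 month, a ratio of 2.66 (2.60 to 2.72), and at 445 and 279 at 1 year, a ratio of 1.60 (1.57 to 1.63). At least 1 count was seen in 18 of 21 injured and 14 of 18 intact cells at 1 month. Without the spike-in dominated cells these were 16 of 16 and 13 of 14. By cell Tubb2b ran from 0 to 1093 (median 391) in injured and from 0 to 937 (median 125) in intact cells at 1 month. At 1 year it ran from 0 to 1288 (median 320) in injured and from 11.7 to 1345 (median 206) in the 8 intact cells. Without the spike-in dominated cells the 1-month medians were 519 and 180. Cells of both conditions overlapped at both ages. Tubb2a was at 3125 against 1490 at 1 month, a ratio of 2.10 (2.08 to 2.12), and 2.99 from means over cells, with a single injured cell at 26650. That cell is one of those dominated by spike-ins, and without them the highest injured cell was at 5984 and the pooled ratio 2.08. At 1 year Tubb2a stood at 1598 against 1263, a ratio of 1.27. Tuba1a was at 5946 against 4671 at 1 month and at 3592 against 3076 at 1 year. Pooled over cells, Tuba4a was lower in injured cells at both ages, with ratios of 0.852 and 0.794, but cells of both conditions overlapped. By cell it ran from 0 to 737 (median 395) in injured and from 0 to 936 (median 403) in intact cells at 1 month. At 1 year it ran from 0 to 943 (median 254) and from 75.3 to 657 (median 501).

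**Figure D5:**
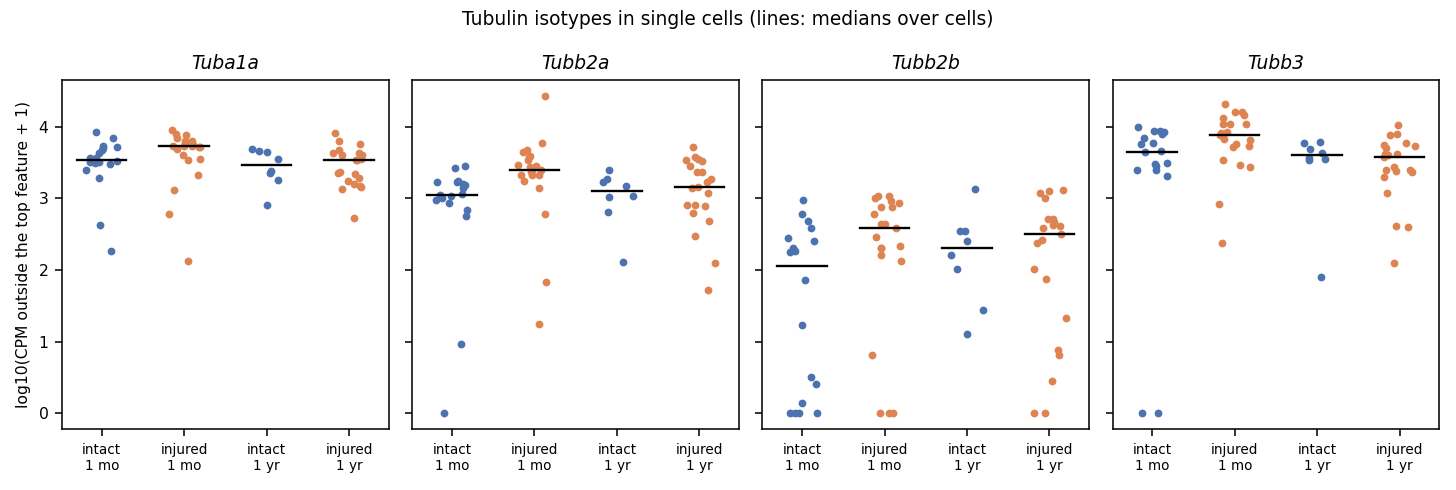
Levels of Tuba1a, Tubb2a, Tubb2b and Tubb3 in single neurons, as log10 of CPM outside the dominant feature plus 1 (y axis), in 4 groups of cells, blue for intact and orange for injured, with lines at medians over cells. Cells of the 2 conditions overlap in each panel. Tubb2b has cells at 0 in 3 of the 4 groups. Each of these cells was dominated by spike-ins or held at most 27674 counts outside the dominant feature.

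Shares of the subfamilies were computed for the cells too. Tuba1a made up 74.8 and 73.6% of pooled alpha-tubulin message per kb in injured and intact cells at 1 month and 72.7 and 68.7% at 1 year. Tubb3 made up 52.2 and 47.5% of beta-tubulin at 1 month and 43.3 and 46.9% at 1 year. Tubb4b made up 8.50 against 11.8% and 12.3 against 13.9%, lower in injured cells at both ages. By cell the Tubb4b share ran from 0 to 13.6% in injured and from 5.97 to 89.3% in intact cells at 1 month. Without the spike-in dominated cells it ran from 5.07 to 13.6% and from 5.97 to 15.3%. The alpha-to-beta ratio of pooled counts per kb was 0.468 and 0.652 at 1 month and 0.583 and 0.575 at 1 year. Over the 55 cells with at least 100000 such counts, log levels of Tuba1a and Tuba1c had a Pearson r of 0.908 and those of Tuba1b and Tubb3 of 0.909, the highest of all pairs, while Tuba4a and Tubb2b had the lowest, 0.176. These r values pool the 4 groups and share each cell's depth.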

How the data were processed

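Low-input and single-cell RNA libraries were made by SMART-seq2 from hand-picked neurons, per the labels' protocols. The authors deposited a table of whole-number read counts per gene, made with featureCounts 1.5.2 without strand and with GENCODE vM16 annotation, per the file headers. The featureCounts table also gives exon lengths in base pairs (another deposited column, not a measurement), which were used for values per kilobase. Trim Galore, STAR and mm10 are named in the submitters' processing notes, and their versions are not given in the sources used here. The 136 RNA sample records carry 87 names, 1 for each count column, and records of the same name were taken as 1 sample. The 94 methylation samples were not analysed here.

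Low-input counts (18 libraries) were filtered with filterByExpr, scaled by TMM and fitted with edgeR 4.0.16 (R 4.3.3), 6 group means and 12 residual degrees of freedom. Adjusted p is Benjamini-Hochberg over 14212 genes in the main fit, called under 0.05. Alternatives were adjusted over their own sets of genes, for instance 14733 without intact 12-month replicate 2. For edgeR, SE is the log2 change over the square root of F. DESeq2 1.42.0 and limma 3.58.1 (voom with quality weights) were alternatives, with the SE of their own fits. The 92 spike-in features served as another scaling. Shares divide counts by exon length. Correlations of levels used log2 CPM with a prior count of 2. The fit was tested on simulated data with the same spread for every gene. They held no library of aberrant makeup and no dominant-feature share tied to condition, so that test does not cover these. The members and lists were chosen with earlier results of these data known. Text genes are all members, the called genes of each list (at most 3 each way, otherwise the smallest p), and the 5 genes most correlated with Tubb3 and with Tubb2b, the members with the smallest p. Sequences are from RefSeq (GRCm38.p6).

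Whether equal replicate numbers pair injured and intact libraries was checked by correlating deviations from group means. Over 1129 genes (mean log2 CPM above 6, the set written first) r was 0.0765, 0.401 and 0.269 at 1 month, and 4 other minimums were looked at after the blocked calls were known. The 3 lower ones put the first pair at 0.109 to 0.126, and the higher one (451 genes) at 0.0862. The 8- and 12-month pairs had at least 1 r below 0 throughout. The pairing is therefore unsettled, and the blocked values stand beside the main ones they change.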

Additional observations from a re-analysis of the deposited data

How the results depend on the processing

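Counts below are of tubulins called. For injury averaged over ages (4 in the analysis as reported), RLE scaling and removal of the dominant feature, an alternative chosen after seeing the data, also gave 4, and DESeq2, no expression filter and limma-voom gave 5, 5 and 6. Spike-in scaling gave 10, moving the median log2 change of all genes to 2.90. The covariate for the dominant feature's share gave 0 (11 genes in all), its log-odds, chosen after seeing the data, 0 (233 genes in all), and the replicate block 0 (329 genes in all, against 878). Leaving out 1 library gave 0 to 5, with 0 without injured 1-month replicate 1 or injured 12-month replicate 2, and 1 without injured 8-month replicate 2 or 3 or intact 1-month replicate 2 or 3. For injury at 12 months (1), DESeq2, RLE, no filter and the removed feature gave 2, limma-voom 3, spike-ins 10, and either covariate, the 6 libraries alone and the replicate block 0. Leaving out 1 library gave 0 to 2, with 0 without any of injured replicates 1, 2 and 3 or intact replicate 1. At 8 months (0) it gave 0 to 1. For intact neurons, 8 against 1 month (0) gave 1 with DESeq2, 2 without a filter and 0 to 1 leaving out a library. In the contrast of 12 against 1 month (0) spike-ins gave 10. In that of 12 against 8 months (1), DESeq2 and no filter gave 3, either covariate 2, limma-voom and the 6 libraries alone 0, and leaving out a library 0 to 2, with 0 without intact 8-month replicate 2. For injured neurons limma-voom gave 1 in 8 against 1 and in 12 against 8 months (0 each). The joint test (0) gave 1 without a filter. At 1 month every setting run gave 0. The replicate block changed no call at 1 or 8 months or in the joint test.

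With the covariate the averaged log2 change was reversed for Tuba1a (-0.10), Tuba1b (-0.50), Tuba1c (-0.16), Tuba4a (-1.07), Tubb3 (-0.03), Tubb4a (-0.67), Tubb4b (-1.18) and Tubb5 (-0.30), and that of Tubb2a at 12 months (-0.09). With the log-odds it was reversed for Tuba1a (-0.23), Tuba1b (-0.46), Tuba1c (-0.13), Tuba4a (-0.73), Tubb2a (-0.01), Tubb4a (-0.79), Tubb4b (-1.39) and Tubb5 (-0.46), and for Tubb2a at 12 months (-0.27). The cause was not tested. Leaving out 1 library gave -0.01 to 0.37 for Tuba4a, reversed without intact 8-month replicate 2, and -0.02 to 0.28 for Tubb4b, reversed without intact 12-month replicate 2. Raw-count shares moved the Tuba4a share difference from -1.75 to -3.38 percentage points. In single cells, the log2 ratio of Tubb2b went from 1.41 to 1.18 at 1 month and from 0.67 to 0.31 at 1 year as a mean over cells, and to 0.61 per all endogenous counts at 1 year. That of Tubb3 went from 0.94 to 0.80 and 0.96 at 1 month, to 0.93 without cells of over 90% spike-in reads (an alternative chosen after seeing the data), and from 0.01 to -0.05 and -0.06 at 1 year. As means over cells Tuba1c (-0.04) and Tubb4a (-0.12) were reversed at 1 year. Shares by coding length were not run. Depth limits intact 12-month replicate 2 most, and each contrast at a single age rests on 3 libraries a side.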
